A study of Arabidopsis thaliana with 6 samples.

Results

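WRKY transcription factors are proteins of plants that bind DNA through a domain named after a short conserved run of amino acids, followed by a zinc finger. They recognise an element called the W box, which is common in the promoters of defence and senescence genes and of WRKY genes themselves, and several of them act below mitogen-activated protein kinase cascades. In rosette leaves the family is best known for responses to microbes and wounding and for the onset of senescence. The genes described here are the 6 whose probe set names a single gene with a symbol of WRKY followed by a number: WRKY6, WRKY20, WRKY22, WRKY42, WRKY47 and WRKY53. The rule used names only, but it was set with earlier results of these data known. Each gene had 1 probe set. They are 6 of 13356 genes that a probe set names alone. The RefSeq gene table holds 72 WRKY genes by symbol or synonym, so these 6 are a small share of the family. One more, ZAP1 (also called WRKY1), is named on the array under its other symbol and is described beside them, and the other 65 were not analysed here. WRKY6 lies on chromosome 1 and the remaining 5 on chromosome 4.

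The samples were rosette leaves of Arabidopsis thaliana at 21 days of age, from plants kept for 3 weeks in pots under 12 h of light with ample water. Wild-type Columbia-0 (Col0) was compared with a double mutant, described in the labels both as a knockdown and as -/-, of AT3G03940 and AT5G18190, which encode the kinases MLK2 and MLK1. The labels write the second locus without its letter G. There were 3 Affymetrix arrays per genotype, and the labels do not say whether a replicate was a single plant or a pool, nor which mutant lines were used, so the p-values rest on differences between RNA samples that may be technical only. All values are log2 expression values made by the authors with RMA, differences are double mutant minus wild type, and a gene was called changed at a limma adjusted p under 0.05, with adjustment over all 22746 probe sets.

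The arrays of the genotypes stood apart as a whole. MLK1 read 7.92, 7.74 and 7.63 in the wild type and 3.42, 3.57 and 3.36 in the double mutant, and no probe set names MLK2. Of all probe sets tested 38.5% changed, and the array's control for 25S ribosomal RNA differed by 6.26. Control probe sets for the 5′ and 3′ ends of one transcript form 6 pairs, and the level of the 5′ end minus that of the 3′ end was above all wild-type arrays throughout the double mutant in 3 pairs and below them in 1. All 3 measured genes of a list of 10 mesophyll markers lay well above the lower quartile of each array. Their log2 summed level was 13.55 to 13.71 in the wild type and 14.13 to 14.20 in the double mutant. RCA and PSBY make up most of this sum, as LHCB4.3 had means of 7.21 and 7.76. Of 6 root markers 2 were measured, with a log2 summed level of 11.16 to 11.44 and 11.81 to 11.87. That sum is almost PYK10 alone, with means of 11.31 and 11.82, against 4.58 and 5.27 for AT5G17820 (PRX57). All 5 of these mesophyll and root markers rose, and every measured marker lay above the lower quartile of its array. The FAMA (guard cell) and TRY (trichome) genes, each the only measured marker of its list, did not pass, and the flower, seed and phloem marker lists had no named gene. These values moved with the genotype, and their part in the WRKY results was not tested. In whole leaves, fewer cells of a type and less RNA per cell cannot be told apart.

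Of the 6 WRKY genes, WRKY22, WRKY47 and WRKY6 rose in the double mutant, WRKY20 fell, and WRKY53 and WRKY42 did not pass. The 3 that rose stand against 19.8% of all probe sets called higher, and the 1 that fell against 18.7% called lower. The count of 4 of 6 in either direction stands against 38.5% of all probe sets and 35% of those that name 1 gene. Among probe sets with a mean over the 6 arrays at or above the median, 5.88, 54.9% were called. The 4 called genes lie there, but WRKY22 does so only through its double mutant arrays, with a wild-type mean of 5.50. That share is therefore no fair comparison for WRKY22. With so few genes the count of 4 of 6 is given as a description. The median difference of the 6 genes was 0.33, against -0.01 over all probe sets, and the median size of their differences was 0.34 against 0.21. Only WRKY22 moved by at least 1 on the log2 scale, a size that 7.1% of all probe sets reached with a call. The 3 arrays of one genotype lay wholly apart from those of the other for 5 of the 6 genes, as they did for 49.7% of all probe sets.

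**Figure D1:**
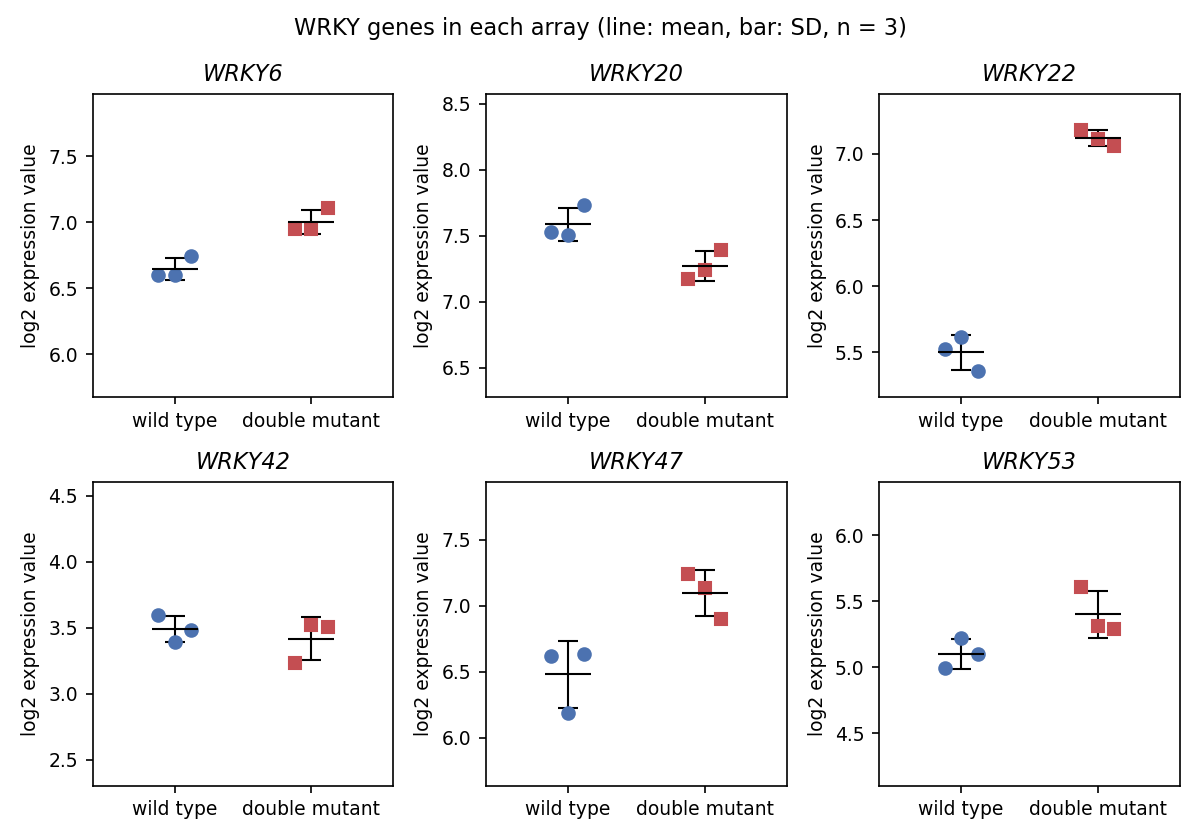
Log2 expression value of each WRKY gene in the 3 wild-type (circles) and 3 double mutant (squares) arrays, with the mean (line) and SD (bar); every panel spans the same range on the log2 scale. WRKY22 shows a gap of 1.44 between the genotypes, WRKY6, WRKY20, WRKY47 and WRKY53 show gaps of 0.07 to 0.27, and the arrays of WRKY42 overlap.

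WRKY22 showed the largest difference of the 6. This gene encodes a factor that acts below the mitogen-activated protein kinase cascade triggered by bacterial flagellin and that also takes part in leaf senescence in the dark. Its level was 5.52, 5.62 and 5.35 in the wild type and 7.18, 7.11 and 7.06 in the mutant. The lowest double mutant array was thus 1.44 above the highest wild-type array. The rise in the mean was 1.62 (SE 0.10, limma adjusted p = 3.9e-07) or 3.08-fold, from 5.50 ± 0.13 to 7.12 ± 0.06 (SD, n = 3). Taken singly, the double mutant arrays were 1.68, 1.62 and 1.56 above the wild-type mean. RMA can compress folds of weakly expressed genes, and whether it did so for WRKY22 was not tested. An exact permutation test of the 6 values, two-sided, gave p = 0.1, the smallest that 3 arrays against 3 allow; the same value was found for WRKY6, WRKY20, WRKY47 and WRKY53.

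WRKY6, WRKY42 and WRKY47 belong to the same subfamily of WRKY proteins, group IIb, and of these WRKY47 and WRKY6 rose. WRKY47 has been linked to aluminium tolerance through genes of the cell wall. It read 6.62, 6.19 and 6.64 in the wild type and 7.24, 7.14 and 6.90 in the double mutant. The groups did not overlap, and the second wild-type array read lowest. The mean rose by 0.61 (SE 0.14, limma adjusted p = 0.0045) or 1.53-fold, with 6.48 ± 0.26 in the wild type and 7.09 ± 0.17 in the mutant (SD, n = 3). These SDs include the largest within-group SD among the 6 genes, in the wild type.

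WRKY6 encodes a factor induced by senescence, pathogens and wounding that also represses the phosphate exporter gene PHO1. Its values were 6.60, 6.60 and 6.75 in the wild type and 6.95, 6.95 and 7.11 in the double mutant. All 3 double mutant arrays were higher than all wild-type arrays, by at least 0.20. The difference of the means, 6.65 ± 0.08 and 7.003 ± 0.09 (SD, n = 3), was 0.35 (SE 0.09, limma adjusted p = 0.011) or 1.28-fold. Without double mutant replicate 3, the highest array, the difference was 0.30 and the adjusted p was 0.053, which does not pass.

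WRKY42 regulates phosphate uptake and transport genes, among them PHO1, and is close to WRKY6 in the family. It read 3.59, 3.40 and 3.48 in the wild type and 3.23, 3.52 and 3.50 in the double mutant. Each of the 6 values lay below the lower quartile of its array, which is treated here as near the background, and the groups overlapped. The difference was -0.07 (SE 0.11, 95% interval -0.31 to 0.16, limma adjusted p = 0.64), and it was 0.02 without double mutant replicate 1. At this signal a change of the transcript could have gone undetected.

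WRKY53 encodes a regulator that promotes leaf senescence and whose transcript marks its early phase. It read 4.995, 5.22 and 5.10 in the wild type and 5.61, 5.31 and 5.29 in the double mutant. The double mutant arrays were all higher, but the gap between the groups was 0.07 and the first double mutant array stood above the others. The means were 5.11 ± 0.11 and 5.40 ± 0.18 (SD, n = 3), a difference of 0.30 (SE 0.11, 95% interval 0.05 to 0.54) with limma adjusted p = 0.055, which does not pass. Without wild-type replicate 2, the highest of its group, the difference was 0.36 and the adjusted p was 0.034, and without double mutant replicate 1 these were 0.20 and 0.22.

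WRKY20 was the member that fell, and it belongs to group I, whose proteins carry a pair of WRKY domains. Its values were 7.52, 7.50 and 7.73 in the wild type and 7.17, 7.24 and 7.39 in the double mutant. Every double mutant array was lower, with a gap of 0.11 between the groups. The mean went from 7.59 ± 0.12 to 7.27 ± 0.11 (SD, n = 3) and was thus lower by 1.25-fold, with a log2 difference of -0.32 (SE 0.10, limma adjusted p = 0.029). The call was lost in 3 of the 6 fits that leave out 1 array. The difference was -0.25 (adjusted p = 0.1) without wild-type replicate 3, -0.27 (adjusted p = 0.11) without double mutant replicate 1 and -0.30 (adjusted p = 0.096) without double mutant replicate 2.

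ZAP1, the group I gene that the array names by its other symbol, moved in the same direction as WRKY20. It read 8.16, 7.71 and 8.09 in the wild type and 7.60, 7.64 and 7.64 in the double mutant. The second wild-type array came within 0.07 of the double mutant arrays, which lay close together. Its mean was 7.99 ± 0.24 and 7.63 ± 0.02 (SD, n = 3), lower in the mutant by 1.28-fold, with a log2 difference of -0.36 (SE 0.12, limma adjusted p = 0.034). Of the 6 fits that leave out 1 array, the one without wild-type replicate 2 kept the call, with -0.50 (adjusted p = 0.0015). Without wild-type replicates 1 and 3 the adjusted p was 0.11 and 0.1, with differences of -0.27 and -0.31. Without double mutant replicates 1, 2 and 3 it was 0.097, 0.085 and 0.078.

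**Figure D2:**
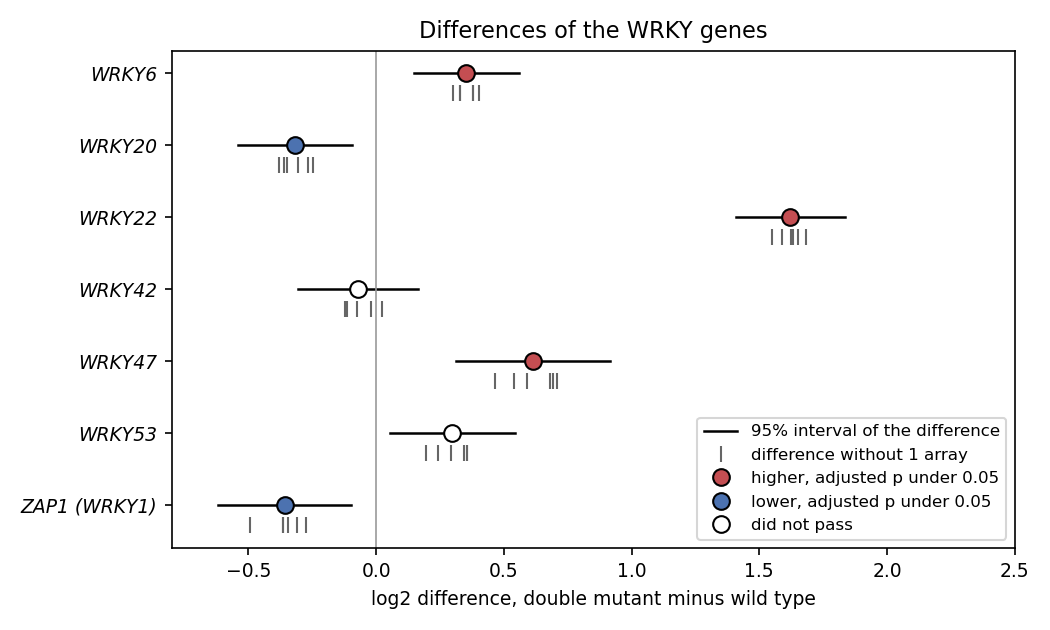
Log2 difference (double mutant minus wild type) of the 6 WRKY genes and ZAP1, with the 95% interval from the limma fit (line) and the differences obtained when 1 array is left out (ticks). WRKY22 at 1.62 lies apart from the rest, which fall between -0.36 and 0.61, and the intervals of all but WRKY42 exclude 0 before adjustment.

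**Figure D3:**
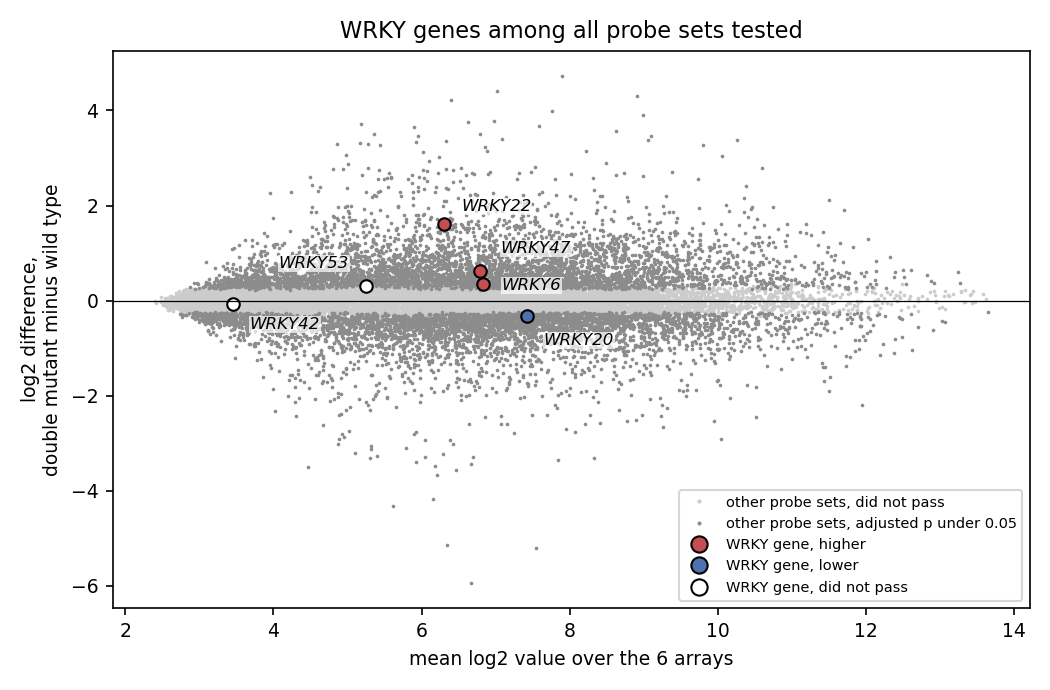
Log2 difference against the mean log2 value over the 6 arrays for all 22746 probe sets (grey dots, darker where the adjusted p is under 0.05), with the WRKY genes marked. WRKY22 lies above most probe sets, WRKY42 lies at the low-signal end, and the other 4 lie within the main cloud of points.

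Genes that act upstream of, beside or downstream of WRKY factors were read from 9 lists with 118 genes, of which 13 were measured. Among them 7 rose and 4 fell, the other 2 did not pass, and the median difference was 0.36. Over all probe sets 19.8% rose and 18.7% fell, 35% of those that name 1 gene changed, and the median difference was -0.01. The listed genes were chosen with results of these data known, so their count is a description. The lists of the mitogen-activated protein kinase cascade, of camalexin synthesis, and of phosphate, boron and seedling genes linked to WRKY6 had no named gene. Measured here means named alone by a probe set, and 8730 of the 22746 probe sets carry no gene name. Probe sets of the other listed genes may thus be on the array. For lack of names, the link of WRKY22 to its kinase cascade and of WRKY6 to PHO1 was not followed here.

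The measured regulators that are induced together with WRKY genes by wounding and touch rose, as did a kinase of pattern recognition. CML38, a calmodulin-like calcium sensor, read 4.59, 4.99 and 4.82 in the wild type and 7.23, 7.02 and 7.07 in the double mutant. It rose by 2.30 (SE 0.11, limma adjusted p = 1.1e-07) or 4.93-fold, with no overlap between the groups. STZ (ZAT10), a zinc finger repressor, rose by 1.56 (SE 0.12) from 6.60 ± 0.25 to 8.16 ± 0.06 (SD, n = 3). These 2 genes were the measured members of a list of 12. BIK1 encodes a cytoplasmic kinase that relays signals from receptors for microbial patterns. It read 7.67, 7.82 and 7.60 in the wild type and 9.17, 9.17 and 9.20 in the double mutant, so the mutant arrays stood well apart and close together. Its difference was 1.48 (SE 0.09, limma adjusted p = 4.6e-07) or 2.80-fold. EFR, the receptor for bacterial elongation factor Tu, differed by -0.05 (95% interval -0.32 to 0.21, limma adjusted p = 0.76), and these 2 were the measured genes of a list of 10.

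The few measured genes of the hormone branches of defence, in which WRKY factors act on both sides, moved in mixed directions. Of 21 genes of the salicylic acid branch 2 were measured. SAG101, a lipase-like partner in immune signalling, rose by 0.36 (limma adjusted p = 0.015), and the glutaredoxin gene GRX480 fell from 5.59 ± 0.22 to 4.95 ± 0.26 (SD, n = 3). Of 19 genes of the jasmonate and ethylene branch 3 were measured. EIN3, the master transcription factor of ethylene signalling, read 10.17, 10.09 and 10.26 in the wild type and 9.68, 9.79 and 9.57 in the double mutant. Its mean was lower by 1.41-fold, a difference of -0.50 (SE 0.10, limma adjusted p = 0.0017), and the groups did not overlap. The defensin gene PDF1.2, an end point of the same branch, rose by 1.99 (SE 0.11). PDF1.2 lies in an interval of chromosome 5, from AT5G40450 to AT5G55000, where 451 of 753 measured genes rose and 29 fell. Over all probe sets 19.8% rose. The interval was looked at with earlier results of these data known, so its count is a description. None of the 6 WRKY genes lies there. The thionin gene THI2.1 fell by 0.39 (limma adjusted p = 0.028) from a mean of 4.12 to 3.73, although its groups overlapped. In double mutant replicates 1 and 2 it read 3.63 in each, below the lower quartiles of these arrays, 3.71 and 3.76. The call of SAG101 was lost without wild-type replicate 3 (adjusted p = 0.059) or double mutant replicate 1 (0.072). That of THI2.1 was lost without double mutant replicate 1 (0.1) or 2 (0.11) and without wild-type replicate 2 (0.08) or 3 (0.068).

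From the senescence list 1 of 12 genes was measured. SAG29, a sugar transporter gene that is active in senescing leaves, rose by 1.48 (SE 0.11) from 4.92 ± 0.11 to 6.40 ± 0.20 (SD, n = 3). VQ proteins bind WRKY factors and change their activity, and 3 of 9 listed genes were measured. IKU1 differed by -0.32 (95% interval -0.60 to -0.04, limma adjusted p = 0.068). The other 2 entered that list by locus and went opposite ways, with AT2G22880 higher by 1.27 (SE 0.16) and AT1G78410 lower, with a difference of -0.37 (SE 0.09).

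**Figure D4:**
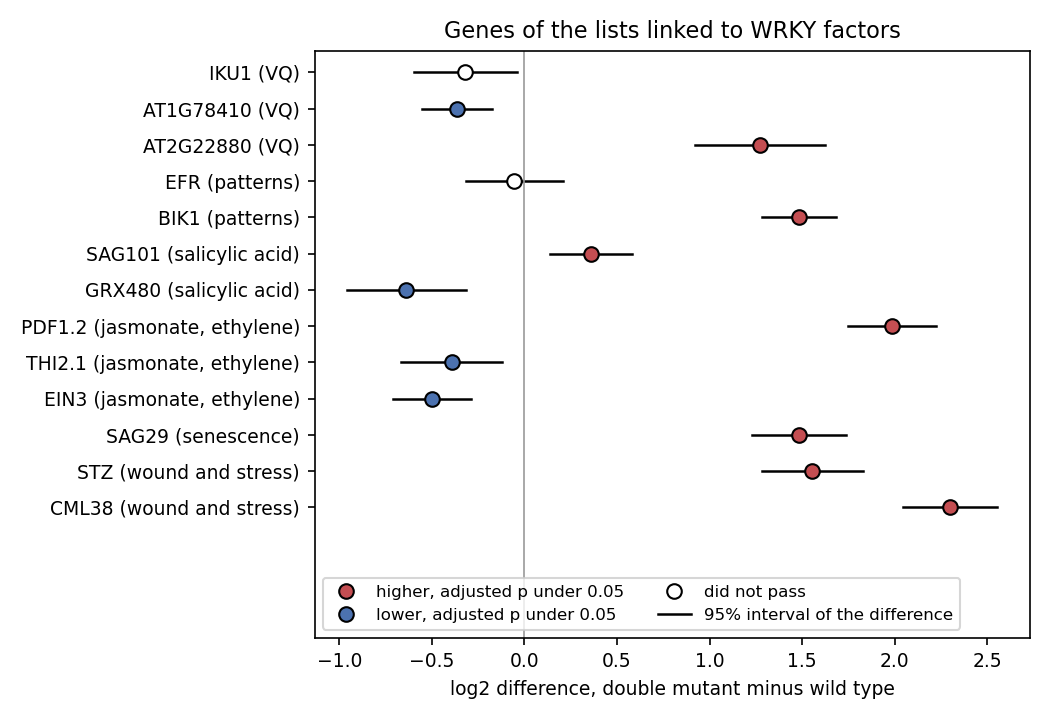
Log2 difference (double mutant minus wild type) with its 95% interval for the 13 measured genes of the lists linked to WRKY factors. CML38 at 2.30 and PDF1.2 at 1.99 lie highest, GRX480 at -0.64 lies lowest, and the intervals of the genes that fell all lie above -1.

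The genes whose 6 values followed those of each called member most closely were taken from 5892 genes with a mean above the median of all probe sets. Likeness was the root mean square distance between values after each gene's own mean was subtracted, over the 6 arrays. Nearest to WRKY22 were AT4G16563, at a distance of 0.05 with a difference of 1.57 (SE 0.10), and TBL38, at 0.06 with a difference of 1.69 (SE 0.09). Nearest to WRKY47 were AT5G42765 at 0.06 and AT3G26510 at 0.06, with differences of 0.55 and 0.61. AT5G42765 lies in the same interval of chromosome 5 as PDF1.2, where most measured genes rose. AT4G14500 and AT1G15180 were nearest to WRKY6, both at 0.03, with differences of 0.33 in each. AT5G35910 and AT5G19900 were nearest to WRKY20, also both at 0.03, with differences of -0.30 in each. No WRKY gene was among the nearest genes of another. WRKY42 and WRKY53 had means below the median and were not searched. The distance counts the size of the difference, and the called members have differences of unlike size. This outcome therefore does not show whether the members follow each other. The 8 nearest genes share arrays and genotype with the members, so the likeness is a description.

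The nearest 3 measured genes on each side along the chromosome were read for each WRKY gene, in the gene order of the RefSeq table. Genes that were not measured were skipped, so up to 14 genes lie between, as for AT1G62210 and WRKY6. Among these 36 genes 6 rose, 8 fell and the remaining 22 did not pass, and their median difference was 0.03. These counts lie near the shares over all probe sets, 19.8% higher and 18.7% lower, so they show nothing particular to the neighbours. Around WRKY22 none of the 6 neighbours rose and 2 fell, and their differences ran from -0.58 to 0.19 against 1.62 for WRKY22 itself. Around WRKY6 none rose and 2 fell, among them AT1G62290, the next gene, with a difference of -0.50 (SE 0.09). Around WRKY47, 1 rose and 1 fell. AT4G01700 had the lowest difference of all 36, at -1.03 (SE 0.11, limma adjusted p = 2.2e-05). WRKY42, itself near the background, lies next to AT4G04460, which rose by 1.48 (SE 0.13, limma adjusted p = 7.8e-06), from 5.34 ± 0.30 to 6.82 ± 0.04 (SD, n = 3). Around WRKY20, which fell, 3 neighbours rose and 1 fell. Around WRKY53 none rose and 2 fell, one of them the adjacent 3xHMG-box2, a gene for a chromatin protein with HMG boxes, at -0.59 (SE 0.12).

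**Figure D5:**
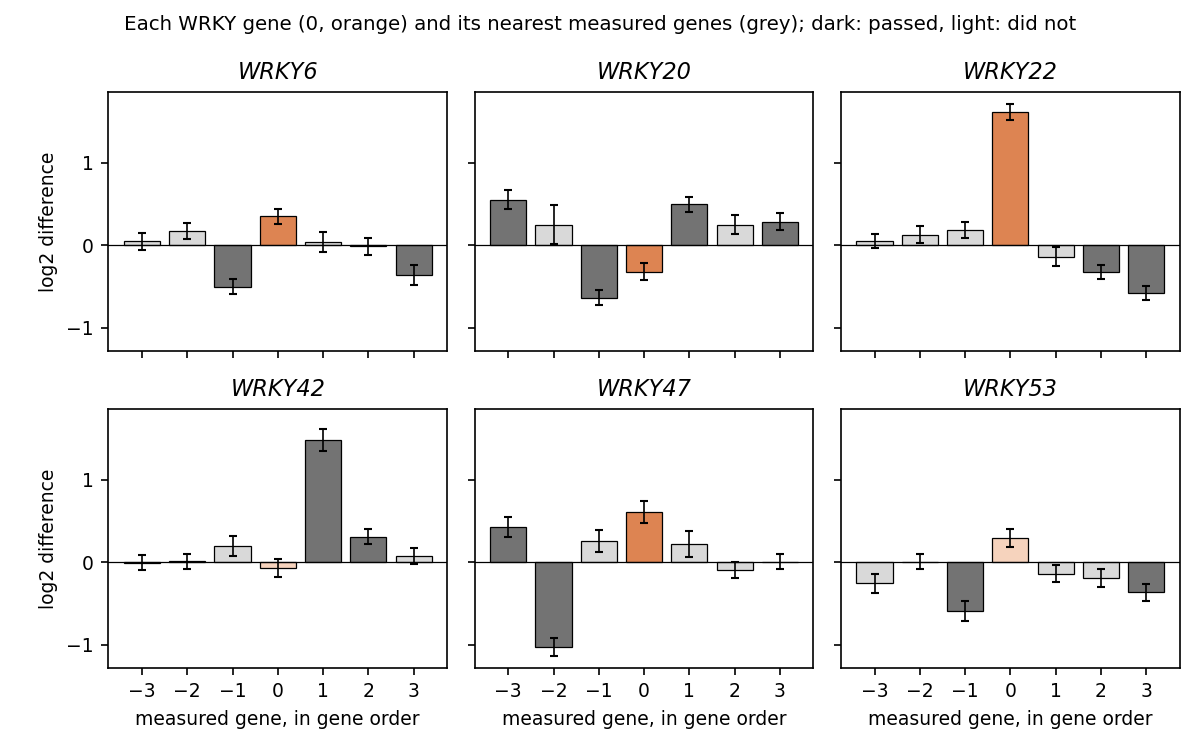
Log2 difference (double mutant minus wild type) with its SE for each WRKY gene (position 0, orange) and the 3 nearest measured genes before and after it in gene order (grey; dark bars passed an adjusted p of 0.05, light bars did not). Genes that were not measured are skipped. The bar of WRKY22 at 1.62 stands alone among its measured neighbours, while beside WRKY42 the next gene, AT4G04460, has the tall bar at 1.48.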

How the data were processed

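Biotin-labelled cRNA was hybridised to 6 Affymetrix arrays, 3 per genotype; groups and replicate numbers come from the sample titles. The deposited table holds a log2 expression value for each probe set and array, made by the authors with RMA, limma and R 2.9.0, per the submitters' processing notes; no label or file header used here names a genome build, and coordinates are left out. The authors' deposited table gives log2 differences, p-values, a moderated t score and a log odds score of their limma comparison; its differences matched the differences of group means to within 6.7e-09 and set the direction, and it served only as an alternative. No further normalization was applied. Tests left out 64 control probe sets, and genes were named through the platform annotation and the RefSeq table of TAIR10.1 (13436 of 13513 probe sets that name 1 gene matched). A value below its array's lower quartile in each array of a group was treated as near the background; no detection calls, scan dates or batches were used.

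Tests used limma 3.58.1 under R 4.3.3 (two-sided, lmFit with a genotype term and eBayes, 10.6 total degrees of freedom) with Benjamini-Hochberg adjustment, and an exact permutation test of single genes. Simulations in the layout of double mutant against wild type were run 5 times, with 200 changed probe sets each among 22746. In them 84.2% of changes of 1 and 11.2% of changes of 0.4 on the log2 scale were recovered. The real comparison called 8757 probe sets, and the adjustment is less strict where more probe sets change. These shares therefore do not give the recovery in the real data. The members, lists and tests were chosen with earlier results of these data known; the chromosomal neighbours were added with the values seen. Genes named are the WRKY genes, up to 3 called genes per list with the smallest adjusted p or else the one with the largest statistic, the 2 nearest profiles of each called member, and MLK1; EFR, IKU1 and single neighbours were named outside this rule. Same-numbered arrays did not deviate together (correlations of -0.08, -0.10 and -0.16 for numbers 1, 2 and 3). Tables and plots were made with pandas 2.3.3, matplotlib 3.10.9, scipy 1.17.1 and numpy 2.4.6 under Python 3.11.15.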

Additional observations from a re-analysis of the deposited data

Results flagged for a closer look

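The array's 25S ribosomal RNA control, a probe set outside the gene tests, gave a signal in the double mutant arrays far above that in the wild-type arrays. It read 5.45, 6.81 and 5.53 in the wild type and 12.19, 12.08 and 12.32 in the double mutant, a difference of 6.26 on the log2 scale. The calls of WRKY22, WRKY47, WRKY6 and WRKY20 come from the same arrays, and the part of this signal in them was not tested.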

How the results depend on the processing

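Under 8 alternatives that keep all arrays (replicate block, both signal filters, median centring, repeated quantile normalization, intensity trend, array weights and the authors' deposited table), WRKY22, WRKY47, WRKY6 and WRKY20 kept direction and call. Their differences ran from 1.57 to 1.66, 0.57 to 0.61, 0.31 to 0.35 and -0.37 to -0.32. For WRKY22 the low-signal filter gives no separate support, as this gene passed it only through its double mutant arrays. WRKY53 passed with array weights (0.30, adjusted p = 0.046) and with the lower-quartile filter (0.30, adjusted p = 0.049). The weight was lowest for wild-type replicate 2, at 0.47, and highest for double mutant replicate 2, at 2.08. Leaving out 1 array gave 1.55 to 1.68 for WRKY22, 0.47 to 0.71 for WRKY47, 0.30 to 0.40 for WRKY6, -0.38 to -0.25 for WRKY20, 0.20 to 0.36 for WRKY53 and -0.12 to 0.02 for WRKY42, which turned positive, at 0.0236, without double mutant replicate 1. The count of changed WRKY genes was 3 to 5 of 6, and that of all probe sets 6985 to 8834. The genes of the fixed lists that changed numbered 9 to 12 of 13 without 1 array. In the 6 fits that leave out 1 array, SAG101 lost its call in 2 and THI2.1 in 4, with adjusted p up to 0.072 and 0.11. Under the low-signal filter, which tests fewer genes, 6 of 6 changed, against 54.9% of all probe sets past this filter. PDF1.2 and CML38 passed it only through their double mutant arrays, so for them the filter gives no separate support. With the replicate number as a block, which the arrays give no ground for, 4 of 6 WRKY genes were called, the adjusted p of WRKY20 was 0.033, and 8095 probe sets changed. No alternative used a second probe set, as each member has 1. The number of arrays limits the precision, and WRKY42 near the background allows no statement on small changes.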
